A study of Mus musculus with 7 samples.

Results

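The enzymes that add or remove methyl groups on DNA and on histone lysines were described in mouse CD8 T cells labelled as ACLY KO (knockout) or WT (wild type). ACLY is the ATP citrate lyase that makes cytosolic acetyl-CoA. The 37 genes were chosen by name, with earlier results of these data known. They comprise 6 DNA methyltransferases and TET dioxygenases, 4 genes of Polycomb repressive complex PRC2, 15 other histone methyltransferases and 12 histone demethylases. All 37 were found among the 16156 genes measured, and none was lost to a filter on low counts.

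RNA was sequenced from 3 ACLY KO and 4 WT libraries of CD8 T cells, labelled as strain C57Bl/6. Both kinds of cell carried the OT-I receptor, which recognises an ovalbumin peptide, and a congenic marker. They had been placed in C57Bl/6 hosts 1 day ahead of an infection with ovalbumin-expressing Listeria monocytogenes, and were recovered 6 days after it. How the gene was deleted, and whether the libraries of 1 genotype came from separate animals, are not given in the labels, so the spread behind a p-value is that of these libraries and may be technical.

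DNA methyltransferases put methyl groups on cytosine: Dnmt1 copies the pattern onto newly made strands, while Dnmt3a and Dnmt3b set new marks, and the TET enzymes oxidise the mark so that it can be lost. PRC2 writes the repressive Polycomb mark on histone H3, and other writers mark active promoters, enhancers, transcribed gene bodies or heterochromatin, each with S-adenosylmethionine as the methyl donor. Most demethylases, like the TET enzymes, need 2-oxoglutarate, an intermediate of the TCA cycle. In effector CD8 T cells Ezh2 and Dnmt3a are known for silencing genes of naive and memory cells, and loss of Tet2 is known to favour memory cells.

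Gene counts per library summed to 37473484 to 39692359 in KO and 45288353 to 75586011 in WT. Levels are given as CPM, the count set against the scaled total of its library, and listed in the order of the replicate numbers (KO 1 to 3, WT 1 to 4). Acly itself was at 262, 62.0 and 209 CPM in KO, against 393, 339, 414 and 276 CPM in WT, with a log2 difference (KO minus WT) of -1.003 ± 0.44 (SE) that did not pass (adjusted p = 0.278, edgeR). The groups did not overlap, KO replicate 2 was far below the others, and without it the log2 difference was -0.60. limma voom called Acly lower (log2 -1.48, adjusted p = 0.0449). The 5 genes Cd8a, Cd8b1, Cd3d, Cd3e and Cd3g summed to 1876, 5068 and 4897 CPM in KO, against 4709 to 6083 CPM in WT, so each library expressed the markers of the labelled cell type. Libraries of both genotypes stood apart. KO replicate 1 held the most B cell transcripts (10 markers summing to 10208 CPM, against 641 and 1161 CPM in the other KO libraries and 245 to 683 CPM in WT) and the most red cell transcripts (19573 CPM, against 95.9 and 2782 CPM in the other KO libraries and 0.499 to 181 CPM in WT). WT replicate 4 held the most cell cycle transcripts (24 genes summing to 6269 CPM, against 954 to 1778 CPM in KO and 1005 to 1101 CPM in the other WT libraries). KO replicate 3 held the most transcripts of Csf1r, C1qa, Adgre1 and Vcam1, macrophage markers, at 239, 117, 76.6 and 309 CPM. They were at 150, 47.9, 32.5 and 126 CPM in KO replicate 1, at 4.12, 6.84, 3.49 and 12.5 CPM in KO replicate 2, and at most at 4.17, 1.75, 1.06 and 5.76 CPM in WT. All 10 macrophage and monocyte markers summed to 754 to 2342 CPM in KO, against 473 to 2560 CPM in WT, where Ly6c2, which T cells also express, made up most of the sum. The part of these other cells in the results was not tested. Fewer cells of a type and less RNA per cell cannot be told apart in such libraries.

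No enzyme of the 37 passed the test between the genotypes, and the fitted differences were small. In data simulated at the spread of these 7 libraries, edgeR recovered 7 of 100 2-fold changes and 48 of 100 4-fold changes. A missing call therefore does not show that a gene was unchanged. Of the 37 genes, 0 were called higher and 0 lower in KO by edgeR's quasi-likelihood test at a Benjamini-Hochberg adjusted p under 0.05, where 0% of all genes were called each way, and the smallest adjusted p of a member was 0.162. At an unadjusted p under 0.05 there were 3 higher (Tet2, Kmt2c and Setd2) and 4 lower (Dnmt1, Ezh2, Suz12 and Ehmt2). These are 8.11% and 10.8% of the members, beside a background of 11.0% and 7.89% of all genes. These counts were 1 higher and 0 lower without KO replicate 2, 3 and 0 without KO replicate 3, 7 and 3 without KO replicate 1, 0 and 5 with a replicate block, and 11 and 7 without KO replicate 1 and WT replicate 4. DESeq2 called 1 member higher, Tet2, and 0 lower, where it called 6.39% of all genes higher and 3.22% lower. limma voom called 0 members in either direction, where it called 5.32% and 1.68% of all genes. The log2 differences ran from -0.81 for Dnmt1 to 0.93 for Tet1, so each was under 2-fold in size, and 32 of the 37 were under 1.5-fold. Their median was 0.05, beside a median of 0.00 over all genes, with 22 members above 0 and 15 below. Each KO library lay above each WT library for 2 members (5.41%) and below for 3 members (8.11%), beside 9.46% and 9.03% of all genes. These shares lay near the background. Without KO replicate 1 and WT replicate 4 together, edgeR called 3 members higher (Tet2, Kmt2c and Kmt2d) and 1 lower (Suz12), while it called 5.43% of all genes higher and 4.20% lower. For each of these members KO replicate 1 was the KO library nearest to WT. Leaving it out had to widen their differences, so these calls give no separate support.

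**Figure D1:**
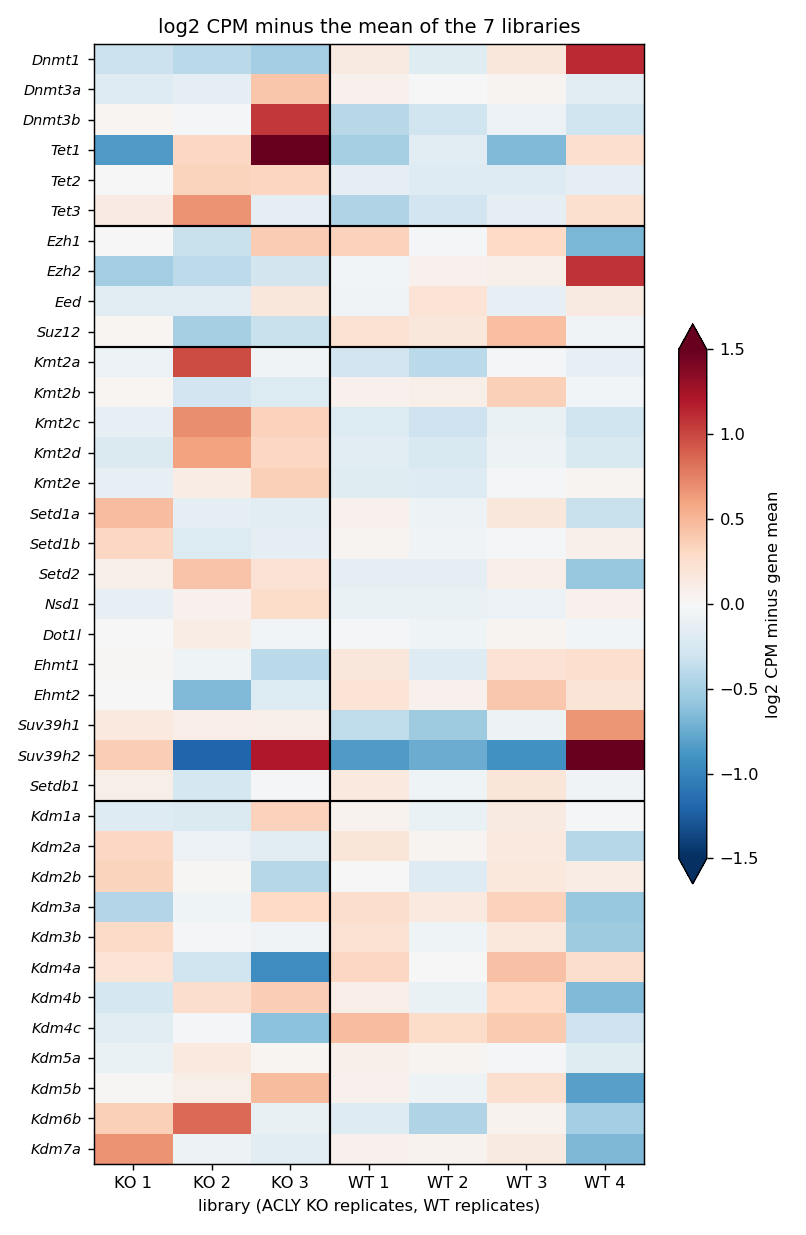
Log2 CPM of the 37 enzymes in each library minus the gene's mean over the 7 libraries, with ACLY KO replicates left and WT replicates right; lines part DNA enzymes, Polycomb genes, methyltransferases and demethylases. WT replicate 4 is the highest or lowest library for 17 of the 37 genes, KO replicate 2 is the highest for Kmt2a, Kmt2c and Kmt2d, and for Dnmt1 and Ezh2 all 3 KO libraries are below all 4 WT libraries.

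Promoter sequences of 28 of the 37 genes were taken from RefSeq (GRCm38.p6, the same assembly as mm10), as 40 windows of 250 bases before and 50 after a start site. They were searched on both strands for TTTCCCGC and TTTGGCGC, a pair of sequences that E2F factors, the activators of S phase genes, are known to bind. They were also searched for TTTGAA, a sequence of promoters active in mitosis. Either of the E2F sequences was found in 3 of the 40 windows, where 1.56% of 32851 promoter windows of the same length held one. TTTGAA, which shares no match with the other pair here, was found in 5 of the 40 windows, where 17.9% of all windows held it. The 3 genes with an E2F sequence were Dnmt1, Ezh2 and Suz12. Their matches are shown, with the 30 bases around each in lower case and the match in capitals, because they are the only matches to either E2F sequence in the 40 windows.
Dnmt1: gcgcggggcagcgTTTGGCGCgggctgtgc
Ezh2: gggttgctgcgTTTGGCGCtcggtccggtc
Suz12: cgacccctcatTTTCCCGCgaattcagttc
The Dnmt1 stretch is chr9:20952574-20952603 on the minus strand and the Ezh2 stretch chr6:47595009-47595038 on the minus strand, both just after a start site. The Suz12 stretch is chr11:79992876-79992905 on the plus strand, before the start site. A match of letters is a description, shows no binding, and was not tested against the levels.

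Among the DNA enzymes, Dnmt1 was lower in KO and Tet2 and Dnmt3b were higher, each without overlap of the groups, and none passed over all genes. In all 5 of the 6 were above 0, with a median log2 difference of 0.39, which was 0.25 without KO replicate 2 and 0.18 without KO replicate 3. Dnmt1, the maintenance methyltransferase (chromosome 9, 20907209 to 20959888, minus strand, mm10), was at 163, 155 and 142 CPM in KO, against 224, 179, 230 and 444 CPM in WT. The KO libraries lay close together and below every WT library, and WT replicate 4 stood far above the others. The log2 difference was -0.81 ± 0.31 (SE; edgeR adjusted p = 0.217). It was -0.46 without WT replicate 4 (adjusted p = 0.111), which was at 2.10 times the mean of the other WT libraries. With the KO libraries set beside WT replicates 1 to 3 alone, each KO library was still the lower.

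Tet2, which oxidises methylcytosine (chromosome 3, 133463679 to 133545139, minus strand), was at 61.1, 77.0 and 76.5 CPM in KO, against 55.5, 53.3, 53.6 and 55.9 CPM in WT. All WT libraries lay within a narrow range below the KO libraries, of which KO replicate 1 was the nearest. The log2 difference of 0.39 ± 0.13 (SE) had an edgeR adjusted p of 0.162, and DESeq2 called it (adjusted p = 0.0479). Without KO replicate 1 and WT replicate 4 the log2 difference was 0.52 and edgeR called it (adjusted p = 0.0359). Dnmt3b, a de novo methyltransferase, was at 14.3, 13.9 and 29.2 CPM in KO, against 10.5, 11.4, 13.2 and 11.4 CPM in WT. KO replicate 3 was about double the rest, and the log2 difference of 0.72 ± 0.31 (SE; edgeR adjusted p = 0.27) was 0.28 without it. That library held the most Csf1r, C1qa, Adgre1 and Vcam1 transcripts, though not the most Lyz2.

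The other de novo enzyme and the other TET genes overlapped between the genotypes. Dnmt3a was at 55.0, 56.7 and 83.8 CPM in KO, against 65.9, 62.5, 64.5 and 55.7 CPM in WT, a log2 difference of 0.07 ± 0.18 (SE; edgeR adjusted p = 0.878). Its sign turned without KO replicate 3 (log2 -0.15), and it was also below 0 in limma voom (-0.03). Tet1 was at 2.81, 6.29 and 15.5 CPM in KO, against 3.57, 4.49, 3.19 and 6.02 CPM in WT. KO replicate 1 was the lowest of all libraries and KO replicate 3 the highest, and the log2 difference of 0.93 ± 0.57 (SE; edgeR adjusted p = 0.431) was 0.08 without KO replicate 3. Tet3 was at 63.6, 93.6 and 52.8 CPM in KO, against 42.8, 47.9, 53.2 and 69.1 CPM in WT (log2 0.40 ± 0.24, SE; edgeR adjusted p = 0.432). Here KO replicate 2 stood highest, and without it the log2 difference was 0.13.

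To compare levels between genes, CPM was divided by the summed exon length in kilobases, which gives RPKM. On that scale Dnmt1 was at 20.8 ± 1.44 RPKM in KO and 36.5 ± 16.1 RPKM in WT (SD; n = 3 KO, n = 4 WT), far above the other DNA enzymes. Tet2, Tet3, Dnmt3a and Dnmt3b averaged 4.24, 4.19, 3.92 and 3.75 RPKM in KO and 3.24, 3.19, 3.73 and 2.28 RPKM in WT. In KO these 4 did not differ beyond the spread between libraries, while in WT the libraries of Dnmt3b lay below those of Dnmt3a. Tet1 was lowest, at 0.53 RPKM in KO and 0.28 RPKM in WT. The ratio of Dnmt1 to Dnmt3a on this scale was 6.71, 6.16 and 3.83 in KO, against 7.67, 6.47, 8.05 and 18.0 in WT. The ranges overlapped, and the ratio in WT replicate 4 was more than double that of any other library.

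**Figure D2:**
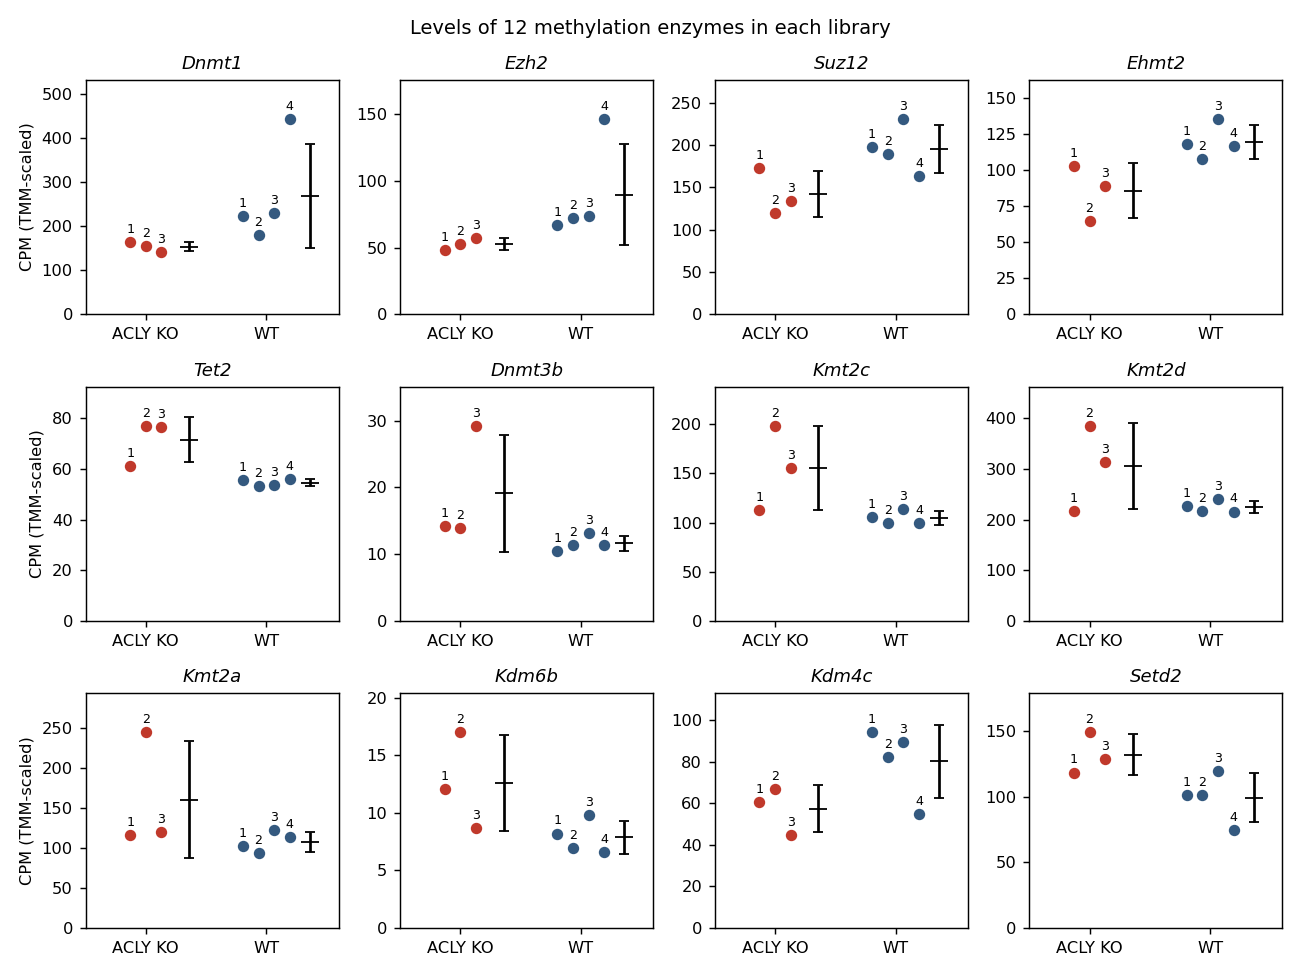
CPM of 12 enzymes in each library, ACLY KO left of WT, with points numbered by replicate and the mean ± SD as black bars; each vertical axis starts at 0. Dnmt1, Ezh2 and Ehmt2 show no overlap with KO below WT, Tet2 and Dnmt3b show no overlap with KO above WT, and Kmt2a is high in KO replicate 2 alone (245 CPM).

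In PRC2, the catalytic subunit Ezh2 and the structural subunit Suz12 had lower means in KO, while Ezh1 and Eed had like means in both genotypes. Ezh2 (chromosome 6, 47530139 to 47595341, minus strand) was at 48.2, 52.8 and 57.0 CPM in KO, against 67.2, 72.2, 73.4 and 147 CPM in WT. The groups did not overlap, the KO libraries and WT replicates 1 to 3 were each tightly placed, and WT replicate 4 was 2.07 times the mean of the other WT libraries. The log2 difference was -0.77 ± 0.29 (SE; edgeR adjusted p = 0.219), and -0.43 without WT replicate 4 (adjusted p = 0.111). Suz12, which holds the complex together, was at 173, 119 and 134 CPM in KO, against 198, 189, 231 and 163 CPM in WT. Only KO replicate 1 and WT replicate 4 overlapped. Its log2 difference was -0.46 ± 0.18 (SE; edgeR adjusted p = 0.222), and without these 2 libraries it was -0.68 and was called (adjusted p = 0.0373). Leaving out the 2 libraries that overlapped had to widen the difference, so that call gives no separate support.

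Ezh1, the other catalytic subunit and the one known for resting cells, was at 143, 112 and 184 CPM in KO, against 180, 141, 174 and 88.4 CPM in WT (log2 0.01 ± 0.28, SE; edgeR adjusted p = 0.993). WT replicate 4 was the lowest library, and without it the log2 difference was -0.17. Eed, which binds the Polycomb mark, was at 104, 104 and 131 CPM in KO, against 113, 134, 107 and 127 CPM in WT (log2 -0.09 ± 0.14, SE; edgeR adjusted p = 0.781). The ratio of Ezh2 to Ezh1 on the RPKM scale was 0.376, 0.524 and 0.345 in KO, against 0.417, 0.573, 0.469 and 1.85 in WT. Ezh1 thus had the higher level in every library but WT replicate 4, and the ratios of the other WT libraries overlapped those of KO. The median log2 difference of the 4 genes was -0.27.

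The cell cycle level of the libraries stood beside the 2 enzymes with the largest lower values. The mean over 24 cell cycle genes was 5.84, 4.24 and 3.04 log2 CPM in KO, against 4.07, 3.81, 3.74 and 7.76 log2 CPM in WT. The library with the highest cycle level had the highest Dnmt1, Ezh2, Suv39h1 and Suv39h2. Among the KO libraries Dnmt1 stood in the order of the cycle level and Ezh2 in the opposite order. KO replicate 1 had a higher cycle level than WT replicates 1 to 3 and less Dnmt1 and Ezh2 than each of them. The part of cycling cells in these differences was not tested. For Suv39h1 and Suv39h2, both writers of the heterochromatin mark, the difference turned on that library. Suv39h1 was at 34.0 to 35.7 CPM in KO, against 24.6, 22.2, 30.5 and 50.9 CPM in WT. Its log2 difference was 0.11 ± 0.29 (SE; edgeR adjusted p = 0.878) and 0.43 without WT replicate 4. Suv39h2 was at 3.02, 1.02 and 5.40 CPM in KO, against 1.30, 1.39, 1.25 and 10.2 CPM in WT, with a log2 difference of -0.17 ± 0.95 (SE) that became 1.26 without WT replicate 4. Neither was called in any of these fits.

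**Figure D3:**
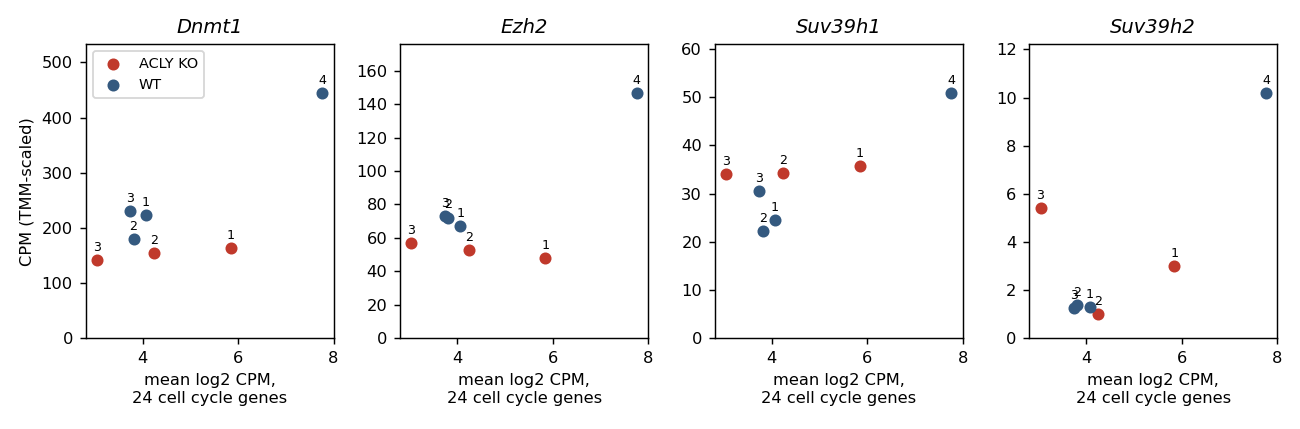
CPM of 4 enzymes (vertical axes from 0) against the mean log2 CPM of 24 cell cycle genes (horizontal axis, cut to the measured range), 1 point per library, numbered by replicate, with ACLY KO in red and WT in blue. WT replicate 4 lies alone at the upper right (7.76 on the cycle scale), and KO replicate 1 (5.84) lies below the other WT libraries for Dnmt1 and Ezh2.

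Among the other histone methyltransferases the largest positive differences were those of 3 Kmt2 genes, from a family that methylates promoters and enhancers of active genes. Kmt2c, an enhancer methyltransferase (chromosome 5, 25271798 to 25498783, minus strand), was at 113, 199 and 156 CPM in KO, against 106, 99.3, 114 and 99.9 CPM in WT. KO replicates 2 and 3 lay above every WT library, and KO replicate 1 lay within the WT range. The log2 difference of 0.57 ± 0.19 (SE) had an edgeR adjusted p of 0.169, and without KO replicate 1 and WT replicate 4 it was 0.75 (adjusted p = 0.0323). It was 0.36 without KO replicate 2. An exon of Kmt2c overlaps a gene on the other strand, and the strand setting of the counts is not given, so its level is uncertain.

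Kmt2d, the closely related enhancer enzyme, had its KO libraries in the same order, at 217, 385 and 315 CPM in KO, against 226, 217, 242 and 216 CPM in WT. Its log2 difference was 0.44 ± 0.19 (SE; edgeR adjusted p = 0.272), 0.24 without KO replicate 2, and 0.63 without KO replicate 1 and WT replicate 4 (adjusted p = 0.0374). Kmt2a, also known as MLL1, was at 117, 245 and 120 CPM in KO, against 102, 93.7, 122 and 114 CPM in WT. This difference (log2 0.57 ± 0.27, SE; edgeR adjusted p = 0.318) was that of 1 library, since it was 0.13 without KO replicate 2. Kmt2e, a family member with no known methyltransferase activity, was at 315 ± 52.9 CPM in KO, against 271 ± 21.9 CPM in WT (mean ± SD; n = 3 KO, n = 4 WT). Kmt2b, the fifth of the family, had a log2 difference of -0.27 ± 0.16 (SE). The promoter methyltransferases Setd1a and Setd1b were at 7.22 ± 1.87 and 18.3 ± 3.71 CPM in KO, against 6.66 ± 0.96 and 18.3 ± 0.79 CPM in WT (mean ± SD; n = 3 KO, n = 4 WT).

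Ehmt2, also called G9a, a writer of repressive marks in euchromatin (chromosome 17, 34898469 to 34914052, plus strand), was at 103, 65.2 and 89.2 CPM in KO, against 118, 108, 136 and 117 CPM in WT. Every KO library was below every WT library, KO replicate 1 only slightly so. The log2 difference was -0.48 ± 0.18 (SE; edgeR adjusted p = 0.206), and it was -0.32 without KO replicate 2. Its partner Ehmt1 had a log2 difference of -0.26 ± 0.16 (SE; edgeR adjusted p = 0.437), and -0.15 without KO replicate 3. Setd2, which marks transcribed gene bodies, was at 118, 149 and 129 CPM in KO, against 101, 101, 119 and 74.8 CPM in WT. KO replicate 1 and WT replicate 3 overlapped narrowly, and the log2 difference was 0.41 ± 0.17 (SE; edgeR adjusted p = 0.262). Setdb1, a repressor of retroelements, Nsd1, which methylates the same residue as Setd2, and Dot1l, which methylates a residue in the core of histone H3, had log2 differences of -0.12, 0.14 and 0.05. Dot1l was steady, at 52.3 to 58.1 CPM in KO and 51.5 to 55.4 CPM in WT. The 15 methyltransferases had a median log2 difference of 0.11.

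None of the 12 demethylases had an unadjusted p under 0.05, and for each of them the KO and WT ranges overlapped. Kdm6b, which removes the Polycomb mark (chromosome 11, 69398508 to 69413675, minus strand), was at 12.1, 17.0 and 8.73 CPM in KO, against 8.21, 6.91, 9.79 and 6.63 CPM in WT. KO replicates 1 and 2 were above every WT library. The log2 difference was 0.67 ± 0.31 (SE; edgeR adjusted p = 0.294), and 0.40 without KO replicate 2. Kdm4c and Kdm4a, demethylases of heterochromatin, had lower means in KO. Kdm4c was at 60.8, 66.7 and 44.7 CPM in KO, against 94.1, 82.3, 89.6 and 54.9 CPM in WT (log2 -0.48 ± 0.23, SE; edgeR adjusted p = 0.309). Only WT replicate 4 lay within the KO range, and without it the log2 difference was -0.62 (adjusted p = 0.104).

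Kdm4a was at 57.5, 40.4 and 26.1 CPM in KO, against 61.8, 50.01, 67.5 and 59.6 CPM in WT (log2 -0.53 ± 0.26, SE; edgeR adjusted p = 0.334). KO replicate 3 was the lowest library, and the log2 difference was -0.29 without it and -0.85 without KO replicate 1. Kdm5b, a demethylase of active promoters, was at 92.0, 96.5 and 126 CPM in KO, against 94.9, 86.6, 108 and 51.6 CPM in WT (log2 0.30 ± 0.25, SE; edgeR adjusted p = 0.582), and the log2 difference was 0.13 without WT replicate 4 and 0.14 without KO replicate 3. Kdm7a, a demethylase of repressive marks, was at 146, 86.8 and 81.6 CPM in KO, against 95.9, 95.5, 101 and 57.7 CPM in WT (log2 0.26 ± 0.27, SE; edgeR adjusted p = 0.665). For both of these WT replicate 4 was the lowest library, and the sign for Kdm7a turned without KO replicate 1 (log2 -0.06); it was 0.11 without WT replicate 4 and 0.41 without KO replicate 3. The other 7 demethylases (Kdm1a, Kdm2a, Kdm2b, Kdm3a, Kdm3b, Kdm4b and Kdm5a) had log2 differences from -0.13 for Kdm3a to 0.20 for Kdm4b. The difference of Kdm4b was 0.05 without WT replicate 4, 0.08 without KO replicate 3, 0.34 without WT replicate 3 and 0.37 without KO replicate 1. Kdm5a, another demethylase of active promoters, averaged 205 ± 17.4 CPM in KO, against 199 ± 15.0 CPM in WT (mean ± SD; n = 3 KO, n = 4 WT). The median of the 12 was 0.04, and it ran from -0.01 to 0.10 with 1 library left out.

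**Figure D4:**
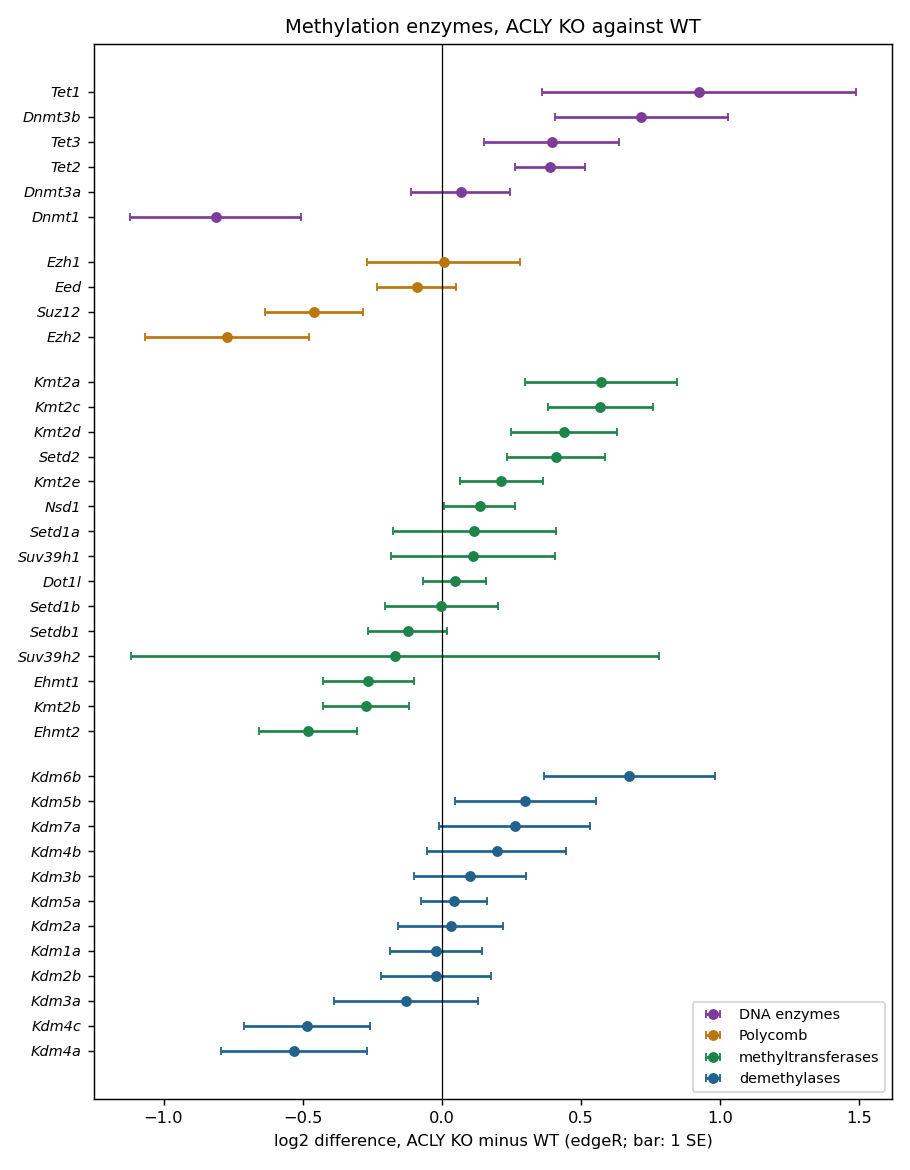
Log2 difference (ACLY KO minus WT) of each of the 37 enzymes on the horizontal axis, with bars of 1 SE from edgeR, grouped by role and ordered by value within each group. The differences run from -0.81 for Dnmt1 to 0.93 for Tet1, most lie within 1 or 2 SE of 0, and the bar of Suv39h2 is the widest (SE 0.95).

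Over the 37 genes, KO replicates 1, 2 and 3 were the highest or lowest library for 11, 16 and 14 genes and WT replicates 1 to 4 for 3, 7, 6 and 17 genes.

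Other genes of the pathway were looked at as lists, none of which had a member past the adjusted threshold in edgeR. Their counts at an unadjusted p under 0.05 stand beside the same background, 11.0% of all genes higher and 7.89% lower. Of 17 other histone lysine methyltransferases, 3 were higher and 1 lower (17.6% and 5.88%). Ash1l, which methylates active gene bodies, was at 105 ± 11.0 CPM in KO, against 55.5 ± 3.16 CPM in WT (mean ± SD; n = 3 KO, n = 4 WT; log2 0.92 ± 0.12, SE; edgeR adjusted p = 0.0651). Smyd5, a SET domain protein, was at 42.6 ± 1.87 CPM in KO, against 20.9 ± 4.003 CPM in WT (log2 1.03 ± 0.19, SE; adjusted p = 0.067). Every KO library was above every WT library for both, and DESeq2 called both. Without WT replicate 4 edgeR called both (adjusted p = 0.0459 and 0.0444), and it called Ash1l without KO replicate 1 (0.0414) or KO replicate 3 (0.0476). WT replicate 4 was the WT library nearest to KO for Smyd5 (25.8 CPM). KO replicate 1 was the KO library nearest to WT for Ash1l (92.5 CPM). Leaving out the nearest library had to widen the difference, so those calls give no separate support. Exons of Ash1l overlap Dap3 on the other strand.

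Of 11 measured partners of the Kmt2 and Setd1 enzymes, in what is called the COMPASS complex, 0 were higher and 2 lower (0% and 18.2%). Wdr82, a subunit that goes with Setd1a and Setd1b, was at 101 ± 8.03 CPM in KO, against 152 ± 3.74 CPM in WT (mean ± SD; n = 3 KO, n = 4 WT; log2 -0.60 ± 0.11, SE; edgeR adjusted p = 0.0661), and DESeq2 called it lower. Dpy30, a shared subunit, was at 59.7 ± 12.2 CPM in KO, against 93.7 ± 21.7 CPM in WT (log2 -0.65 ± 0.23, SE; adjusted p = 0.187). Of 12 genes of the S-adenosylmethionine cycle 1 was higher and 1 lower (8.33% each). Srm, the spermidine synthase that uses a product of the methyl donor, was at 72.2 ± 14.6 CPM in KO, against 30.7 ± 4.63 CPM in WT (log2 1.23 ± 0.19, SE; edgeR adjusted p = 0.0651). DESeq2 called it higher, as did edgeR without KO replicate 1 (adjusted p = 0.0414) or WT replicate 4 (0.0444). Of all libraries left out singly, KO replicate 1 gave the largest log2 difference of Srm (1.39), so the call without it gives no separate support. Ahcy, which clears the by-product S-adenosylhomocysteine, was at 12.04 ± 2.90 CPM in KO, against 21.7 ± 7.43 CPM in WT (log2 -0.85 ± 0.31, SE; adjusted p = 0.21).

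Of 8 protein arginine methyltransferases 3 were higher and 1 lower (37.5% and 12.5%), with Prmt2 and Prmt3 at 18.5 ± 3.27 and 79.2 ± 8.93 CPM in KO, against 11.2 ± 1.03 and 58.4 ± 2.29 CPM in WT (mean ± SD; n = 3 KO, n = 4 WT). Of 23 other Polycomb subunits 1 was higher and 2 lower (4.35% and 8.70%). Pcgf5, of a variant Polycomb complex, was at 54.4 ± 18.8 CPM in KO, against 31.7 ± 5.92 CPM in WT, and Rnf2, the ubiquitin ligase of Polycomb complex PRC1, was at 96.9 ± 13.6 CPM in KO, against 129 ± 13.2 CPM in WT. Of 15 measured partners and readers of DNA methylation 2 were higher and 0 lower (13.3% and 0%). In this list limma voom called 1 gene lower, Mbd2 (log2 -1.48, adjusted p = 0.0311), which did not pass in edgeR (adjusted p = 0.272). Gadd45a and Gadd45g, stress response genes linked to DNA demethylation, were at 20.2 ± 13.5 and 22.4 ± 3.51 CPM in KO, against 7.06 ± 1.72 and 13.5 ± 2.40 CPM in WT. DESeq2 called Prmt2, Prmt3, Gadd45a and Gadd45g higher, and edgeR's adjusted p for these 4, Pcgf5 and Rnf2 lay between 0.125 and 0.19. Gadd45a was highest in KO replicate 1 (35.4 CPM, against 16 and 9.31 CPM in the other KO libraries), and its log2 difference of 1.52 was 0.84 without that library. Pcgf5 was highest in KO replicate 2 (74.8 CPM), and its log2 difference of 0.78 was 0.48 without it. The B cell, red cell and macrophage transcripts given above stand beside these differences too.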

How the data were processed

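The submitters' processing notes name Trim Galore 0.6.0, STAR 2.7.8, DESeq2 with no version, and the mouse build mm10. The counting tool, its strand setting, annotation and filter were not given in the sources used here. Raw counts were deposited by the authors for 16156 genes in 7 libraries, beside log2 CPM of the same genes, which equalled edgeR's log2 CPM of the counts (TMM scaling, prior count 2) within 4.99e-09 and supplied the symbols. Genotypes were compared over all genes in edgeR 4.0.16 under R 4.3.3 (quasi-likelihood, genotype only, Benjamini-Hochberg, threshold 0.05; filterByExpr removed 0 genes); standard errors came from the same fit. Coordinates, exon lengths and overlaps came from GENCODE (mm10). Exons of 8 members overlap those of another of the 16156 measured genes: Eed, Kmt2c, Kmt2e, Suv39h2, Setdb1, Kdm2b, Kdm5a and Kdm7a. Overlaps with annotated genes outside the measured ones were not searched. A count of 3 equals 0.0397 to 0.0801 CPM before TMM scaling.

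Given in every library were Dnmt1, Dnmt3a, Ezh1, Ezh2, Tet2, Kdm6b and, per group, the 5 members with the smallest p; of each other list, the 2 genes with the smallest p; Suv39h1, Suv39h2 and the other members with values were chosen after their values were seen. Members, lists and alternatives were chosen with earlier results of these data known. Alternatives were 2 other scalings, 2 filters, DESeq2 1.42.0, limma 3.58.1 voom with quality weights, a replicate block, and leaving out libraries. The scripts were tested on simulated data.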

Additional observations from a re-analysis of the deposited data

Results flagged for a closer look

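In 9 of 61 values checked, 1 of the 4 WT libraries lay far from the other 3 (a gap over 0.829 of the group's range, which chance gives in about 1 in 20 groups), and in 8 of these it was WT replicate 4. Among the enzymes this library was high for Ezh2 (147 CPM), Suv39h2 (10.2 CPM) and Nsd1 (130 CPM, against 116 to 117 CPM in the other WT libraries), and low for Kdm7a (57.7 CPM). Among other pathway genes it was high for Pcgf5 (40.5 CPM) and Ahcy (32.8 CPM). Its sum of cell cycle transcripts was high (6269 CPM) and that of the 3 measured dendritic cell markers low (165 CPM, most of it Itgax). WT replicate 2 was high in red cell transcripts (181 CPM). Why these libraries differ was not tested. The KO libraries were not checked in this way. The median coefficient of variation (SD over mean) of the members was 20.3% in KO and 9.62% in WT replicates 1 to 3. It was larger in KO for 33 members. WT replicate 4 was left out of the WT value because it stood apart in these same data, while every KO library was kept. The 2 spreads are thus not a like comparison, and they do not show that KO varied more. With all 4 WT libraries the SD of Dnmt1, for one, was 119 CPM in WT and 10.6 CPM in KO.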

How the results depend on the processing

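The call of 0 members was the same in edgeR under both other scalings, both filters, the replicate block and each library left out. The main filter removed 0 genes, so the setting with no filter was the same fit and could not differ. All genes called higher and lower numbered 1032 and 520 in DESeq2, 860 and 272 in limma voom, 864 and 668 without KO replicate 1 and WT replicate 4, and 0 to 142 and 0 to 48 with 1 library left out. Members called were 1 higher in DESeq2, and 3 higher and 1 lower without KO replicate 1 and WT replicate 4. The median log2 difference of the methyltransferases was 0.17 with upper-quartile scaling, 0.18 in limma voom, 0.17 with the replicate block and 0.29 without KO replicate 1 and WT replicate 4; with 1 library left out it was 0.034 to 0.18, and that of the DNA enzymes was 0.18 to 0.48, of the Polycomb genes -0.33 to -0.19 and of the demethylases -0.01 to 0.10. The cause was not tested. The replicate block moved no call at the adjusted threshold; at an unadjusted p under 0.05 it gave 0 members higher and 5 lower, against 3 and 4 without it. Same-numbered libraries had deviations correlated at -0.11, -0.05 and 0.14, so the numbers were not taken to pair them, and only 1 of the 3 KO libraries correlated best with its own number. Among other pathway genes edgeR called Ash1l, Smyd5, Srm, Pcgf5 and Prmt3 higher and Wdr82 lower without KO replicate 1 and WT replicate 4. KO replicate 1 was the KO library nearest to WT for Ash1l, Pcgf5 and Prmt3. WT replicate 4 was the WT library nearest to KO for Smyd5, Pcgf5 and Prmt3. Leaving out the nearest libraries had to widen these differences, so the calls of these genes give no separate support. For Wdr82 neither library was the nearest. With median of ratios scaling Setd1b was 0.021, Kdm1a 0.0055 and Kdm2b 0.0010, with upper-quartile scaling 0.048, 0.036 and 0.033, and in DESeq2 0.021, 0.0055 and 0.00094. In limma voom Dnmt3a was -0.028, Ezh1 -0.28, Setd1a -0.041, Suv39h2 0.82, Kdm2a -0.15, Kdm3b -0.12 and Kdm5a -0.017. With the replicate block Dnmt3a was -0.0084, Ezh1 -0.19, Setd1b 0.0035, Suv39h2 0.99, Kdm2a -0.10, Kdm3b -0.039 and Kdm5a -0.0086. Without KO replicate 1 and WT replicate 4 Ezh1 was -0.13, Eed 0.016, Setd1a -0.18, Suv39h2 1.32, Kdm1a 0.080, Kdm2a -0.23, Kdm3b -0.13 and Kdm7a -0.19. With 1 library left out the ranges that crossed 0 were -0.15 to 0.18 for Dnmt3a, -0.19 to 0.17 for Ezh1, -0.12 to 0.22 for Setd1a, -0.18 to 0.093 for Setd1b, -0.027 to 0.43 for Suv39h1, -0.81 to 1.26 for Suv39h2, -0.23 to 0.077 for Kdm1a, -0.13 to 0.12 for Kdm2a, -0.22 to 0.15 for Kdm2b, -0.33 to 0.037 for Kdm3a, -0.032 to 0.20 for Kdm3b, -0.017 to 0.11 for Kdm5a and -0.055 to 0.41 for Kdm7a. Low genes such as Suv39h2 and Tet1 have the widest errors.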

Other observations

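Of 16 other demethylases and their partners, 2 were higher and 2 lower in KO at an unadjusted p under 0.05 in edgeR, with 5 above 0 and 11 below. Each count is 12.5% of the list, beside 11.0% and 7.89% of all genes. The genes with the smallest p were Uty and Kdm5d, demethylase genes of the Y chromosome. Kdm5d was at 45.8, 5.35 and 0.0256 CPM in the 3 KO libraries (1715, 230 and 1 counts), against 0.814, 0.426, 0.634 and 0 CPM in WT. Uty was at 41.8, 1.28 and 7.11 CPM in KO, against 0.883, 0.471, 0.518 and 0 CPM in WT. KO replicate 1 was thus the highest library for both, and KO replicates 2 and 3 ranked in opposite orders for the 2 genes. Their relatives on the X chromosome varied less: Kdm5c was at 118, 141 and 112 CPM in KO, against 180, 143, 184 and 139 CPM in WT, and Kdm6a at 89.0, 89.6 and 161 CPM in KO, against 155, 145, 158 and 131 CPM in WT. Neither Kdm5d nor Uty passed in edgeR (adjusted p = 0.207 and 0.135), and DESeq2 called Uty higher. Without KO replicate 1 their log2 differences of 5.18 and 5.15 were 2.51 and 3.15. The sex of the animals is not given in the labels, and its part in these values was not tested.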
